A study of Mus musculus with 47 samples.

Results

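The genes described here are 10 that encode parts of epithelial cell contacts or of the cytoskeleton of simple epithelia: E-cadherin (Cdh1), EpCAM (Epcam), 4 claudins (Cldn3, Cldn4, Cldn6 and Cldn7) and 4 keratins (Krt7, Krt8, Krt18 and Krt19). They were chosen by symbol with earlier results of these data known, as were the gene lists used below. Shares over all genes are therefore given as a scale and not as a test of a set. All 10 were listed in each of 3 tables of FPKM (fragment counts scaled by transcript length and library depth). These held 38347, 38347 and 37514 genes. In all, 47 libraries were made from embryonic stem (ES) cells of the mouse and their derivatives, grown as monolayers in N2B27. Retinoic acid was given over the first 3.5 days, together with SAG, which activates the Sonic hedgehog pathway. Undifferentiated cells received neither agent. Wild-type (WT) cells of a line labelled E14.5 were compared with Foxa2-/- cells (titled Foxa2ko) of a line labelled C57BL/6, both with SAG up to the day of collection. Undifferentiated cells, day 1 and day 2 were each sampled by 2 WT and 3 Foxa2-/- libraries. For days 3.5, 4.5 and 5.5 each genotype had 3. For days 6.5 and 7.5, WT had 3 and Foxa2-/- had 2. A second arm held 1 WT library (line E14.5) and 1 Nkx2.2-/- library (line C57BL/6) per day, with SAG for the first 3.5 days only. Those libraries are titled day 3.5 and day 5.5; the stage and treatment labels of the day 5.5 ones read 3.5 days, and the titles are followed here. From day 3.5 on, the cells were sorted with prominin, a surface protein of neural progenitors, and the positive fraction was sequenced.

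E-cadherin joins neighbouring epithelial cells at adherens junctions through its extracellular repeats and binds catenins inside the cell. Claudins form the strands of tight junctions that seal the space between cells, and EpCAM is a surface protein that associates with claudins, among them claudin-7. Keratins assemble as pairs of a type I chain (Krt18, Krt19) and a type II chain (Krt7, Krt8), and the pair of Krt8 and Krt18 is typical of simple epithelia and of the first epithelia of the embryo. ES cells express E-cadherin and EpCAM, and neuroepithelial cells are known to replace E-cadherin by N-cadherin (Cdh2) as the neural plate forms.

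Depth, estimated from the spacing of low FPKM values, was 33700000 to 39500000 fragments in each early library (undifferentiated to day 2). Late libraries (day 3.5 onwards) had 13500000 to 31400000, and those of the Nkx2.2 arm 9790000 to 12100000. Foxa2, the deleted gene, had mean levels of 0.630 FPKM in undifferentiated WT cells, 33.7 FPKM on day 2 and 46.0 to 80.1 FPKM later, and of at most 0.144 FPKM in any Foxa2-/- group. Values were related to exonic length after the mean of each gene over its table was removed, so slopes compare libraries with each other. The slope was most negative in the first Foxa2-/- library of day 2, at -0.152 on the log2 scale per doubling of length. In the first Foxa2-/- library of day 3.5 it was -0.0934, in the first of day 4.5 -0.0558 and in the third of day 2 -0.055. Since the measure is relative, slopes of both signs occur, and the largest positive slope was 0.0924 in the first WT library of day 1. The source name of undifferentiated Foxa2-/- replicate 3 reads as a neural progenitor, unlike its title. Each comparison of genotypes is also one of lines, and the effects of genotype and line cannot be told apart. No label says that replicates came from separate cultures, so each p-value covers just the spread among these libraries. The tables were normalized separately, and tests were made within a table.

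Promoter sequences are shown for 4 of the genes because Epcam and Cldn6 were higher, and Krt8 and Krt18 lower, in Foxa2-/- cells at the times given below. They come from RefSeq on GRCm38.p6, span 250 bases before to 50 bases after the start site, and are written 5′ to 3′ on the strand of the gene. Capitals mark the E-box letters CACCTG or their reverse complement CAGGTG, the sequence bound by the Snail and Zeb repressors.
Epcam promoter, chr17:87635729-87636028, plus strand: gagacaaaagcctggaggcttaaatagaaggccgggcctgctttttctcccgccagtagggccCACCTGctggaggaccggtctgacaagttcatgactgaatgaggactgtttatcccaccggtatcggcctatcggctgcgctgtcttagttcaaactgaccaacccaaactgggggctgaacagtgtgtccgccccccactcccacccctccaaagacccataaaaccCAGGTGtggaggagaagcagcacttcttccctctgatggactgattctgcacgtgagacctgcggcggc
Cldn6 promoter, chr17:23679115-23679414, plus strand: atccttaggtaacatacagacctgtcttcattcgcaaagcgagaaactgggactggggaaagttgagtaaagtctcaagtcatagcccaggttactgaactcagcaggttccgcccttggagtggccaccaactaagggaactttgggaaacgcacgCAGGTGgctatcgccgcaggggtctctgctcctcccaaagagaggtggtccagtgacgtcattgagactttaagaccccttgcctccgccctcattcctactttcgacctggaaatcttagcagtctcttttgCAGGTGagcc
Krt8 promoter, chr15:102004293-102004592, minus strand: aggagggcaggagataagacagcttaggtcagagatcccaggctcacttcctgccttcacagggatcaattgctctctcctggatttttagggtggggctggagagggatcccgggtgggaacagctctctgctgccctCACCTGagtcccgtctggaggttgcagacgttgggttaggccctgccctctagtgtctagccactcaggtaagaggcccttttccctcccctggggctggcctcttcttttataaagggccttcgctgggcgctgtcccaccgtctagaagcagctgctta
Krt18 promoter, chr15:102027966-102028265, plus strand: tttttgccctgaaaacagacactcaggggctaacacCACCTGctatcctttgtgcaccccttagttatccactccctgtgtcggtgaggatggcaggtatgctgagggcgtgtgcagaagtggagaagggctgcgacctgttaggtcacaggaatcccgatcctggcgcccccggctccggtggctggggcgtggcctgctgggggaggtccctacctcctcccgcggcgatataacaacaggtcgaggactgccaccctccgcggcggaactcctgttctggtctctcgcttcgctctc
Of the 10 genes, 8 had a promoter in the RefSeq table, with 9 promoters in all since Cldn7 had a pair; Cdh1 and Krt19 are named only. The E-box letters were found on either strand in 8 of the 9 promoters and for 8 of the 8 genes, against 20.2% of all 32851 promoters of this length. In the Epcam promoter the matches began 187 and 19 bases before the start site (-187 and -19). The Krt8 match began at -111 and the Krt18 match at -214. The letters GGGCGG (an SP1 motif) were in 6 of the 9 promoters and in 35.7% of all, TGTTTAC (a forkhead motif) was in 0 of the 9 and in 3.6% of all, and AACCGGTT (a Grainyhead motif, its own reverse complement) in 0 of the 9 and in 0.1% of all. All were searched on both strands, and none of the 4 motifs contains another.

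The main pattern was that the direction of the calls changed with time, mostly through different genes. From day 2 to day 5.5, Cdh1 was about 6 to 10 times lower in Foxa2-/- than in WT cells, and from day 3.5 to day 5.5 Krt18 was also lower. On days 6.5 and 7.5 Epcam, Cldn6 and Cldn7 were higher in Foxa2-/- cells, and none of the 9 genes tested was called lower. The sign of the calls moved over all genes too. Of all called genes, 30.1%, 20%, 22.5% and 31.7% were higher on days 2, 3.5, 4.5 and 5.5. On days 6.5 and 7.5 these shares were 52.1% and 53%. Of the 10 genes, only Cdh1 and Epcam were called in both directions. The lower call of Epcam (day 2) and the higher call of Cdh1 (day 7.5) were each lost under some alternatives. No keratin was called higher between genotypes at any time, and Cldn6 and Cldn7 were never called lower. Differences were tested with limma on log2(FPKM + 1), and a gene was called at a Benjamini-Hochberg adjusted p under 0.05 over all genes of the table. In these bulk samples, fewer cells of a type and less RNA per cell cannot be told apart.

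In undifferentiated cells limma called 0 of the 10 genes (2 at an unadjusted p under 0.05), while 0.377% of all genes were called. On day 1 it again called 0 of 10 (5 at an unadjusted p under 0.05), with 1.88% of all genes called. The median log2 difference of the 10 genes on day 1 was 0.44 against 0.09 over all genes tested. On day 2 limma called 3 of 10, all lower in Foxa2-/- cells (Cdh1, Krt7 and Epcam). Of all genes, 5.31% were called on that day and 3.72% called lower. Without Foxa2-/- replicate 2 of day 2 the calls were 5 of 10, and 6039 of all genes in place of 875. The median log2 difference of the 10 genes on day 2 was -1.15 against -0.02 over all genes tested. When only the libraries of day 2 entered the limma fit, 0 of the 10 were called; in the fit above 7 had an unadjusted p under 0.05.

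From day 3.5 on 9 of the 10 genes were tested, since Cldn3 did not reach FPKM 1 in 2 libraries. On day 3.5, 3 of 9 were lower (Cdh1, Krt18 and Cldn4), with 3.38% of all genes called and 2.7% called lower, and the median was -1.42 against -0.01. On day 4.5, 2 of 9 were lower (Cdh1 and Krt18), with 7.5% of all genes called, 5.82% called lower, and medians of -1.22 and 0.00. On day 5.5, 3 of 9 were lower (Cdh1, Krt18 and Krt8), with 14.3% called, 9.73% called lower, and medians of -1.42 and 0.00. On day 6.5 the calls were of the other sign: 3 of 9 were higher (Cldn6, Cldn7 and Epcam), with 24.9% of all genes called, 13% called higher, and medians of 0.32 and 0.07. On day 7.5, 4 of 9 were higher (Cldn7, Cldn6, Epcam and Cdh1), with 25.8% called, 13.6% called higher, and medians of 0.59 and 0.04.

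**Figure D1:**
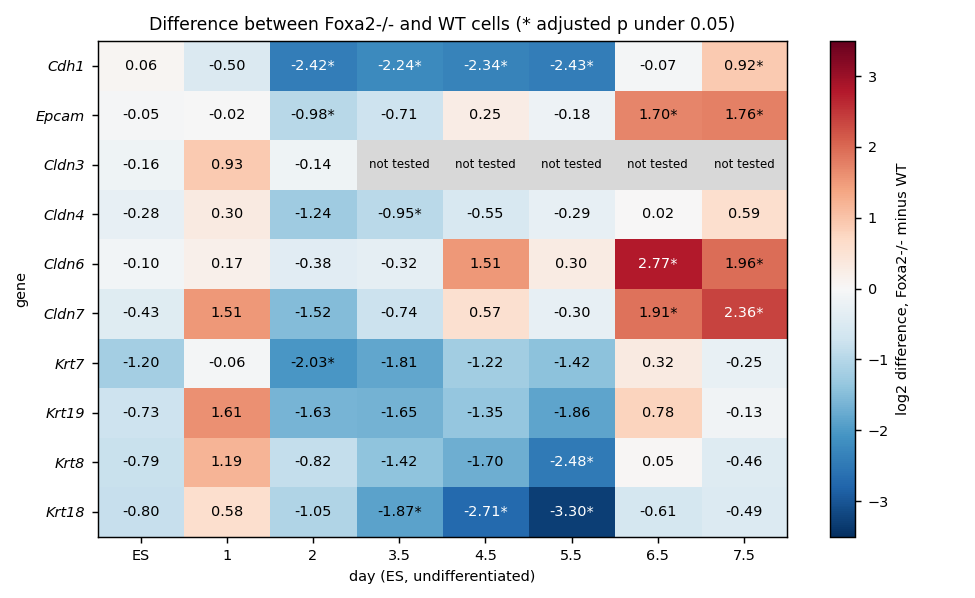
Log2 difference between Foxa2-/- and WT cells on the log2(FPKM + 1) scale for each gene (rows) and time (columns), with an asterisk where the adjusted p of limma was under 0.05 and grey where Cldn3 was not tested. Blue cells (lower in Foxa2-/-) fill the Cdh1 row from day 2 to day 5.5, at -2.24 to -2.43, and red cells the Epcam, Cldn6 and Cldn7 rows on days 6.5 and 7.5, at 1.70 to 2.77.

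Cdh1 (chromosome 8, 106603351 to 106670246, plus strand, GRCm38) was the highest of the 10 genes in undifferentiated cells, at 122 and 92.5 FPKM in WT and 114, 104 and 114 FPKM in Foxa2-/- libraries. The ranges of the genotypes overlapped there. On day 1 its levels were 59.8 and 65.7 FPKM in WT and 47.4, 41.7 and 42.9 FPKM in Foxa2-/- cells, without overlap (log2 difference -0.50, SE 0.18, adjusted p = 0.202). By day 2 WT cells still held 56.2 and 41.5 FPKM, whereas the Foxa2-/- libraries held 6.50, 9.83 and 8.65 FPKM. Every Foxa2-/- library of day 2 thus lay below both WT libraries, and the ratio of means was 5.87 (log2 difference -2.42, SE 0.18, adjusted p = 2.74e-05). In the fit of the 5 libraries of that day alone the difference of -2.42 was not called.

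On day 3.5 Cdh1 stood at 9.76, 11.1 and 11.2 FPKM in WT and 0.666, 1.96 and 2.05 FPKM in Foxa2-/- libraries. Day 4.5 gave 8.71, 9.19 and 10.9 FPKM against 0.972, 1.19 and 1.11 FPKM. On day 5.5 the values were 6.20, 11.9 and 13.3 FPKM against 1.23, 1.16 and 0.753 FPKM. On all of these 3 days the highest Foxa2-/- library was below the lowest WT library, and WT means were 6.85, 8.79 and 9.98 times the Foxa2-/- means. The log2 differences were -2.24, -2.34 and -2.43 (SE 0.23 each; adjusted p = 2.16e-06, 6.95e-07 and 1.77e-07), and each was called under every alternative and without any library. Day 6.5 brought the genotypes together, at 6.55, 7.40 and 6.04 FPKM in WT and 6.65 and 5.90 FPKM in Foxa2-/- libraries (log2 difference -0.07, SE 0.26, adjusted p = 0.877). On day 7.5 Foxa2-/- cells held 13.9 and 10 FPKM against 7.50, 4.68 and 5.37 FPKM in WT cells, the reverse order with no overlap. That difference of 0.92 (SE 0.26, adjusted p = 0.0120) was 0.80 and not called without WT replicate 2, 0.71 and not called without Foxa2-/- replicate 1, and not called in a fit of day 7.5 alone.

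**Figure D2:**
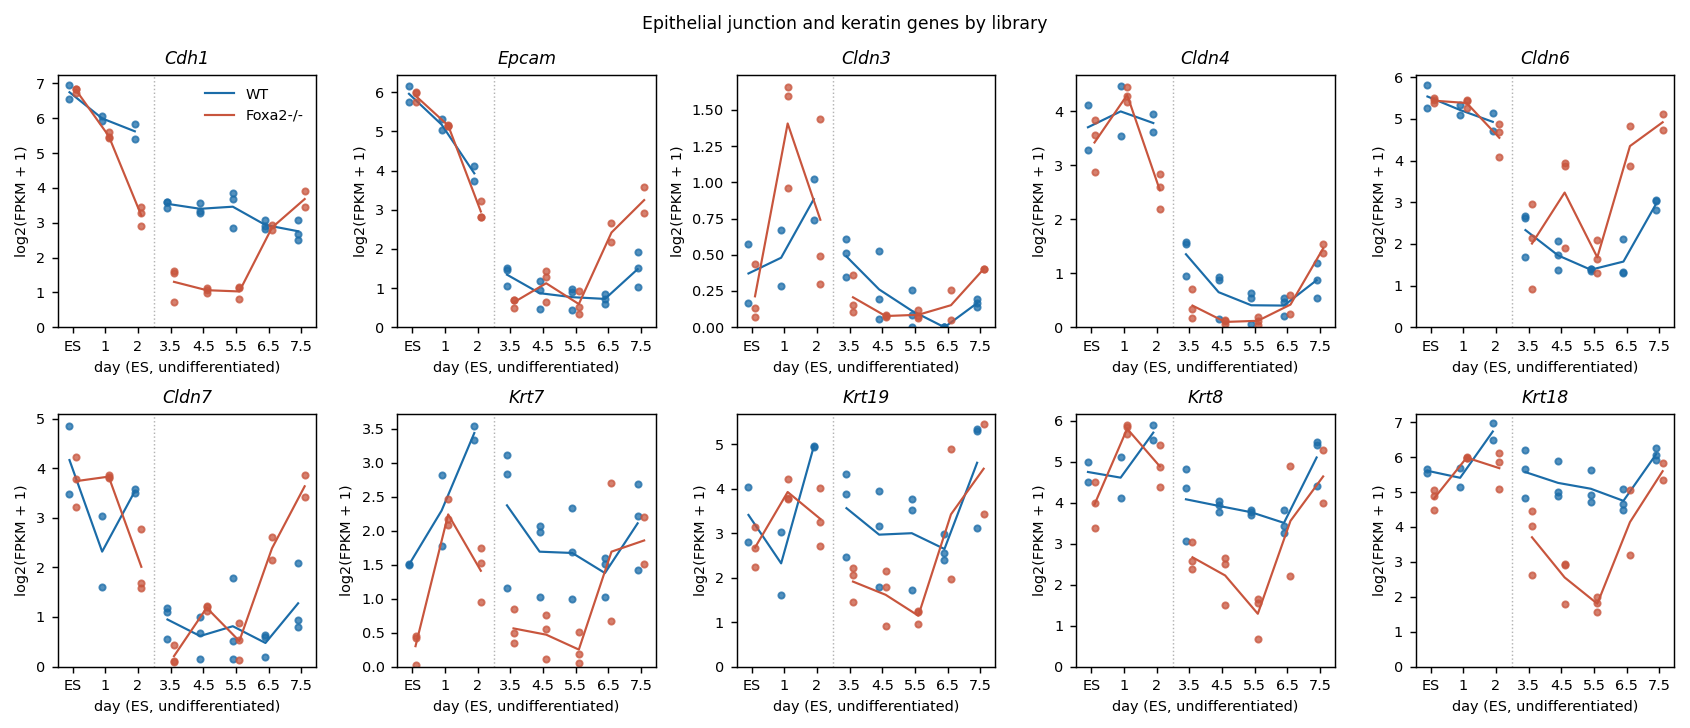
Level of each gene as log2(FPKM + 1) against day, with 1 point per library, WT in blue and Foxa2-/- in red, and lines through the group means that break at the dotted line between the separately normalized early and late tables. Times are evenly spaced rather than to scale, and vertical scales differ between panels. For Cdh1 the red points lie below the blue ones from day 1 to day 5.5 and above them on day 7.5; for Epcam and Cldn7 they lie above on days 6.5 and 7.5.

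Epcam (chromosome 17, 87635979 to 87651129, plus strand) had 70.7 and 53.2 FPKM in undifferentiated WT and 63.3, 52.8 and 62.3 FPKM in Foxa2-/- libraries. On day 2 it stood at 16.3 and 12.4 FPKM in WT and 8.37, 6.03 and 6.09 FPKM in Foxa2-/- libraries. The genotypes overlapped in the first case and not in the second, where the log2 difference was -0.98 (SE 0.18, adjusted p = 0.0106). Without WT replicate 1 of day 2 it was -0.79 and not called, and it was not called in a fit of day 2 alone. From day 3.5 to day 5.5 every library was under 2 FPKM, between 0.353 and 1.88 FPKM in WT and between 0.255 and 1.73 FPKM in Foxa2-/- cells, with no call. On day 6.5 Foxa2-/- libraries held 5.28 and 3.55 FPKM against 0.810, 0.642 and 0.515 FPKM in WT. On day 7.5 they held 11 and 6.49 FPKM against 1.03, 2.77 and 1.86 FPKM. No WT library reached the lower Foxa2-/- library on either day, and the ratios of means were 6.74 and 4.64. The log2 differences were 1.70 and 1.76 (SE 0.29 each; adjusted p = 2.44e-04 and 1.38e-04), and the one of day 7.5 was not called in a fit of that day alone.

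Cldn7 (chromosome 11, 69964779 to 69967885, plus strand) encodes a claudin that binds EpCAM. It was at 28.1 and 10.1 FPKM in undifferentiated WT and at 17.7, 8.29 and 12.8 FPKM in Foxa2-/- libraries. On day 1 the order was 2.05 and 7.16 FPKM against 12.9, 13.2 and 13.6 FPKM, higher in every Foxa2-/- library but not called (log2 difference 1.51, SE 0.50, adjusted p = 0.175). On day 2 it was 10.3 and 10.9 FPKM in WT against 5.84, 2.2 and 2.0 FPKM, lower in every Foxa2-/- library and again not called (-1.52, adjusted p = 0.0839). In the late libraries its means on day 3.5 were 0.964 FPKM in WT and 0.164 FPKM in Foxa2-/- cells, and on day 4.5 0.575 and 1.28 FPKM. The genotypes did not overlap on these days, in opposite order, and neither difference was called (-0.74 and 0.57, adjusted p = 0.354 and 0.429 by limma). On day 5.5 they overlapped. The level of Cldn7 on day 6.5 was 0.516, 0.144 and 0.551 FPKM in WT and 3.44 and 5.16 FPKM in Foxa2-/- cells. On day 7.5 it was 0.924, 3.26 and 0.732 FPKM against 9.69 and 13.5 FPKM. The genotypes were apart on both days, with WT replicate 2 of day 7.5 the highest of its group, and the ratios of means were 10.7 and 7.07. The log2 differences of 1.91 and 2.36 (SE 0.40 each; adjusted p = 0.00152 and 1.72e-04) were called under every alternative tried.

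Cldn6 (chromosome 17, 23679249 to 23682446, plus strand), a claudin known from ES cells and early embryonic epithelia, was between 37.3 and 55.6 FPKM in all undifferentiated libraries. On day 2 it was at 34.3 and 25.4 FPKM in WT and 28.4, 16.1 and 24.6 FPKM in Foxa2-/- libraries, which overlapped. On day 4.5 WT libraries were at 2.32, 3.19 and 1.59 FPKM and Foxa2-/- libraries at 2.73, 13.5 and 14.3 FPKM. Replicate 1 of the Foxa2-/- group lay inside the WT range and the difference of 1.51 was not called (SE 0.48, adjusted p = 0.0604). On day 5.5 all 6 libraries were between 1.48 and 3.24 FPKM. Day 6.5 gave 3.33, 1.5 and 1.45 FPKM in WT against 13.6 and 27.4 FPKM, and day 7.5 gave 6.00, 7.18 and 7.27 FPKM against 25.5 and 33.6 FPKM. Every Foxa2-/- library of those days lay above every WT library, by 9.80 and 4.34 times in the means. The log2 difference of 2.77 on day 6.5 (SE 0.54, adjusted p = 7.35e-04) was not called in a fit of that day alone, and the one of 1.96 on day 7.5 (SE 0.54, adjusted p = 0.0101) was 1.77 and not called without Foxa2-/- replicate 2.

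Cldn4 (chromosome 5, 134945119 to 134946934, minus strand), a barrier-forming claudin of many simple epithelia, was at 16.5 and 8.73 FPKM in undifferentiated WT and at 13.2, 6.37 and 10.7 FPKM in Foxa2-/- cells, which overlapped. On day 2 it was at 14.5 and 11.3 FPKM against 6.14, 3.55 and 5.06 FPKM, apart but not called (log2 difference -1.24, SE 0.35, adjusted p = 0.0595). On day 3.5 it was at 0.928, 1.90 and 1.97 FPKM against 0.626, 0.261 and 0.123 FPKM. That difference was called (-0.95, SE 0.23, adjusted p = 0.0187), but it was -0.86, -0.84, -0.92 and -0.83 and not called without WT replicate 2, WT replicate 3, Foxa2-/- replicate 2 and Foxa2-/- replicate 3, nor in a fit of day 3.5 alone. Later it was below 1 FPKM in all libraries up to day 6.5, and on day 7.5 it stood at 0.457, 1.28 and 0.838 FPKM in WT and 1.60 and 1.92 FPKM in Foxa2-/- cells (0.59, adjusted p = 0.0943). Cldn3, which lies 39.3 kb from Cldn4 (chromosome 5, 134986214 to 134987472, plus strand), was the lowest of the 10 genes in every group up to day 2. Its highest values were 2.02 and 2.16 FPKM, in Foxa2-/- replicates 2 and 3 of day 1. From day 3.5 on Cldn3 never passed 0.522 FPKM and was listed at 0 in 4 libraries, all WT, where 1 fragment is worth 0.0253 to 0.0587 FPKM. An antisense gene, Wbscr25, overlaps it, and whether the authors' counting used strand is not given in the sources used here.

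Krt18 (chromosome 15, 102028180 to 102032027, plus strand) was the highest of the 10 genes in every WT group from day 2 on. In undifferentiated cells it stood at 50 and 45.8 FPKM in WT and at 32.3, 21.5 and 28.8 FPKM in Foxa2-/- libraries (log2 difference -0.80, SE 0.28, adjusted p = 0.595). On day 1 it was at 34.2 and 50.4 FPKM against 62.9, 62.3 and 62.4 FPKM, and on day 2 at 124.6 and 89.6 FPKM against 68.0, 33.2 and 56.7 FPKM. The genotypes did not overlap at any of these times, with Foxa2-/- cells lower, then higher, then lower, and none was called (day 2: -1.05, adjusted p = 0.0537). The gap was wider from day 3.5 to day 5.5. The levels were 27.7, 49.9 and 72.8 FPKM against 5.16, 21.1 and 15.3 FPKM on day 3.5. On day 4.5 they were 58.6, 31.1 and 28.6 FPKM against 2.5, 6.66 and 6.55 FPKM. On day 5.5 they were 49.0, 25.4 and 29.3 FPKM against 1.96, 3.02 and 2.57 FPKM. WT means were 3.62, 7.53 and 13.8 times the Foxa2-/- means, with no overlap on any of the 3 days. The log2 differences were -1.87, -2.71 and -3.30 (SE 0.48 each; adjusted p = 0.0307, 6.69e-04 and 3.87e-05). Those of days 4.5 and 5.5 were called under every alternative; the one of day 3.5 was -1.82, -1.55 and -1.33 and not called without WT replicate 2, WT replicate 3 and Foxa2-/- replicate 1, nor in a fit of day 3.5 alone. On day 6.5 the values were 33.0, 21.6 and 24.3 FPKM against 8.24 and 32.7 FPKM, so that 1 Foxa2-/- library was below and the other within the WT range. Day 7.5 gave 60.2, 76.2 and 65.3 FPKM against 39.9 and 56.5 FPKM (-0.49, adjusted p = 0.563), all below the WT values but not called.

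Krt8 (chromosome 15, 101996698 to 102004482, minus strand), which encodes the partner chain of Krt18, lies 23.7 kb from it with no protein-coding gene between them. The lincRNA gene Gm36026 overlaps Krt8 and a pseudogene, Krt8-ps, is annotated, so its counts are less certain. On day 1 it was at 16.2 and 33.7 FPKM in WT and 49.9, 56.2 and 59.0 FPKM in Foxa2-/- cells, and on day 2 at 58.2 and 45.3 FPKM against 41.2, 20.0 and 28.2 FPKM. Neither was called, and the order of the genotypes, without overlap, was opposite on these days (log2 differences 1.19 and -0.82, SE 0.38; adjusted p = 0.158 and 0.173). By day 5.5 it stood at 12.1, 13.1 and 12.7 FPKM in WT and 0.584, 2.12 and 1.94 FPKM in Foxa2-/- libraries. All 3 mutant libraries lay far under the narrow WT range, and the difference of -2.48 (SE 0.53, adjusted p = 0.00240) was called under every alternative. On day 6.5 the 2 Foxa2-/- libraries parted, at 3.65 and 28.8 FPKM, below and above the WT values of 13.2, 8.63 and 9.77 FPKM. On day 7.5 they were at 15 and 38 FPKM against 20.3, 43.9 and 41.6 FPKM. The level of Krt18 was higher than that of Krt8 in every library: their FPKM ratio ran from 1.06 to 2.28 up to day 2, from 1.03 to 4.08 later and from 3.18 to 4.70 in the Nkx2.2 arm.

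Krt19 (chromosome 11, 100140810 to 100148665, minus strand), a type I keratin of simple and glandular epithelia, was not called between genotypes at any time. It was at 30.1 and 29.9 FPKM in WT and 15.1, 5.54 and 8.46 FPKM in Foxa2-/- cells on day 2 (log2 difference -1.63, SE 0.49, adjusted p = 0.0683). On day 3.5 its values were 4.56, 13.8 and 19.0 FPKM against 3.65, 3.19 and 1.73 FPKM. On day 5.5 they were 2.27, 12.6 and 10.5 FPKM against 0.934, 1.35 and 1.37 FPKM. WT was above on each of these days without overlap, but on days 3.5 and 5.5 WT replicate 1 lay well under its group. Within the 10 late groups, replicate 1 was the lowest for Krt19 in 9, for Krt7 in 8 and for Krt8, Krt18, Cldn4 and Cldn6 in 7. On day 7.5 Krt19 was at 7.69, 38.1 and 39.7 FPKM in WT and 9.88 and 43.0 FPKM in Foxa2-/- cells, which overlapped. Krt7 (chromosome 15, 101411043 to 101430313, plus strand), a type II keratin of glandular epithelia and trophoblast, is overlapped by the antisense gene Gm671. In undifferentiated cells it was at 1.85 and 1.81 FPKM in WT and 0.371, 0.0162 and 0.339 FPKM in Foxa2-/- libraries, apart but not called (-1.20, SE 0.30, adjusted p = 0.198). On day 2 it was at 10.7 and 9.08 FPKM against 2.36, 0.939 and 1.88 FPKM, again apart, and here called (-2.03, SE 0.30, adjusted p = 0.00266), although not in a fit of day 2 alone. Krt7 was also lower in all 3 mutant libraries on days 3.5, 4.5 and 5.5 without a call (-1.81, -1.22 and -1.42; adjusted p = 0.0511, 0.177 and 0.0652).

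The next comparisons ask how the genes changed with time within a genotype. In WT cells from undifferentiated to day 2, 3 of the 10 genes, all keratins, rose (Krt7 by 1.94, Krt19 by 1.54 and Krt18 by 1.13 on the log2 scale) and 2 were lower (Epcam -2.03 and Cdh1 -1.12), while 33.9% of all genes were called, 19.1% higher and 14.8% lower. The members' median was 0.30 against 0.11 over all genes, and other scalings moved the median of all genes to between -0.02 and 0.00. Krt18 was 1.06 and 0.89 and not called without undifferentiated WT replicate 2 and without WT replicate 1 of day 2. Krt19 was 0.92, 1.54 and 1.55 and not called without undifferentiated WT replicate 2, WT replicate 1 of day 2 and WT replicate 2 of day 2. With a replicate block it was 1.54 and not called (adjusted p = 0.0653 by limma), and in all it was not called under 8 of 13 alternatives.

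In Foxa2-/- cells over the same time 8 of 10 were called, 3 higher (Krt7 1.11, Krt8 0.93 and Krt18 0.87) and 5 lower (Cdh1 -3.60, Epcam -2.96, Cldn7 -1.73, Cldn6 -0.89 and Cldn4 -0.88), with 54.6% of all genes called, 31.4% higher and 23.2% lower. The median was -0.18 against 0.14 over all genes, which other scalings put at 0.00 and 0.01. Without replicates 1 and 3 of day 2, 4 of 10 were called, and the keratin changes were 0.66 for Krt7 and 0.28 for Krt18, neither called. Krt8 and Cldn4 were not called under 9 and 7 of 16 alternatives. Krt8 was 0.64, 0.94, 0.67 and 0.94 and not called without undifferentiated Foxa2-/- replicates 2 and 3 and day 2 replicates 1 and 3. Cldn4 was -0.68, -0.82, -0.71 and -0.91 and not called without undifferentiated replicates 1 and 3 and day 2 replicates 2 and 3. Krt18 was 0.71 and 0.66 and not called without undifferentiated replicate 2 and day 2 replicate 1. Tested as an interaction, the change differed between genotypes for 1 of 10 genes, Cdh1, against 1.01% of all genes, 0.747% in the same direction. That share rested on 1 library: 166 of 16465 genes were called, and 3984 without Foxa2-/- replicate 2 of day 2, when 2 of the 10 genes were. Its fall was larger in Foxa2-/- cells by 2.48 on the log2 scale (difference of changes -2.48, SE 0.26, adjusted p = 9.15e-04) and was called in all 20 alternatives, with a median over the 10 genes of -0.86 against 0.01. The interaction of Epcam was -0.93 (SE 0.25, adjusted p = 0.136).

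**Figure D3:**
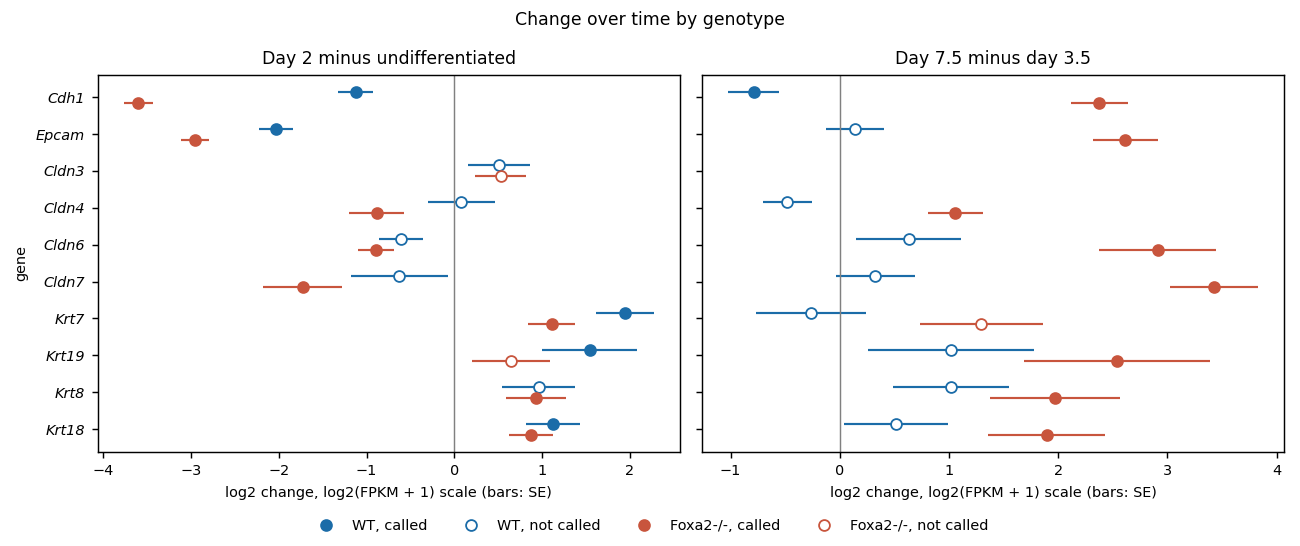
Log2 change on the log2(FPKM + 1) scale from undifferentiated cells to day 2 (left) and from day 3.5 to day 7.5 (right) for each gene, with WT in blue and Foxa2-/- in red, bars of 1 SE and filled points where limma called the change. On the left Cdh1 is at -1.12 in WT and -3.60 in Foxa2-/- cells; on the right it is at -0.79 and 2.38, and Cldn7 at 0.33 and 3.43.

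From day 3.5 to day 7.5, WT cells gave 1 call among 9 genes, a lower Cdh1 (-0.79, SE 0.23, adjusted p = 0.00861), with 46.8% of all genes called, 22.4% called lower, and medians of 0.33 and 0.03. Without WT replicate 1 of day 3.5, and without WT replicate 2 of day 7.5, there were 2 calls. In Foxa2-/- cells 8 of the 9 rose and Krt7 did not pass the test (1.30, adjusted p = 0.0838), with 32.1% of all genes called, 18.7% called higher, and medians of 2.38 and 0.07. The rises were 3.43 for Cldn7, 2.91 for Cldn6, 2.62 for Epcam, 2.54 for Krt19, 2.38 for Cdh1, 1.97 for Krt8, 1.89 for Krt18 and 1.06 for Cldn4. A fit of those groups alone called 3. Without Foxa2-/- replicate 2 of day 7.5 the count was 4, and Krt19, Krt18, Krt8 and Cldn4 were at 1.53, 1.65, 1.33 and 0.98 and not called. Krt18 was also not called without Foxa2-/- replicate 1 of day 3.5 (1.35) and Krt19 not without replicate 3 of day 3.5 (2.31).

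The change from day 3.5 to day 7.5 differed between genotypes for 4 of 9 genes, all larger in Foxa2-/- cells, against 7.42% of all genes called, 3.71% in this direction, and a median of 1.56 against 0.05. For Cdh1 the difference of the changes was 3.16 (SE 0.35, adjusted p = 8.96e-06), with a rise in Foxa2-/- and a fall in WT cells. It was 3.10 for Cldn7 (SE 0.54, adjusted p = 9.39e-04), 2.47 for Epcam (SE 0.39, adjusted p = 4.23e-04) and 1.54 for Cldn4 (SE 0.34, adjusted p = 0.00679). The first 3 were called under every alternative, and Cldn4 was not called with a pseudocount of 0.1. Cldn6 had 2.28 (SE 0.72, adjusted p = 0.0589). None of the 4 keratins was called (0.95 to 1.56).

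On days 6.5 and 7.5 other epithelial genes and markers of other cells also differed between the genotypes; 13% and 13.6% of all genes were called higher on these days. Of 3 tested regulators of epithelial genes 2 were higher on both days, Esrp1, a splicing factor of epithelial cells (0.147 and 0.565 FPKM in WT against 1.88 and 3.07 FPKM in Foxa2-/- cells on days 6.5 and 7.5), and the transcription factor gene Elf3 (0.608 and 1.94 against 4.27 and 6.20 FPKM). Of 6 tested epithelial surface and protease genes 4 were higher on day 6.5 and 3 on day 7.5. They included Spint1, an inhibitor of membrane proteases (0.220 and 1.07 against 3.85 and 7.38 FPKM), and Ap1m2, an adaptor subunit of polarized sorting (0.223 and 0.293 against 2.98 and 4.6 FPKM). Of 10 other tight junction genes, 3 were higher on day 6.5, among them Cgn (cingulin, log2 difference 0.92) and Crb3 (0.88), and on day 7.5 these 2 were higher (1.12 and 0.89) and Lsr, a gene of tricellular junctions, lower (-1.91). The lists were not all of this sign. Of 7 adherens junction partners limma called 0 on both days (0 and 1 at an unadjusted p under 0.05), and 2 of 7 desmosome genes on day 6.5 and 3 on day 7.5 were lower, Dsc2 (desmocollin-2) and Pkp2 (plakophilin-2) on both days.

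Markers of undifferentiated ES cells were among those that differed. Their 8 genes summed to 2.44 to 6.49 FPKM in WT and 29.4 to 49.7 FPKM in Foxa2-/- libraries on day 6.5, and to 11.5 to 16.1 and 29.2 to 33.0 FPKM on day 7.5. None of the 8 was at 0 in every Foxa2-/- library of either day, while in WT cells Fgf4 was at 0 on both days and Tdgf1 on day 7.5. Of 5 tested, Pou5f1 (encoding Oct4) was higher on both days (3.53 and 2.86), Dppa5a on day 6.5, and Klf4 was lower on day 7.5. Levels on day 7.5 were also taken as a percent of the undifferentiated level, in tables normalized separately. In Foxa2-/- cells Pou5f1 was at 1.56%, Nanog at 1.36% and Dppa5a at 0.758%. Cdh1 was at 10.8%, Epcam at 14.7%, Cldn6 at 69.7% and Cldn7 at 89.7% in Foxa2-/- cells. In WT cells these 4 were at 5.45%, 3.05%, 14.7% and 8.59%. By group means the keratins were above their undifferentiated level in both genotypes, such as Krt8 at 172.6% in Foxa2-/- and 134.2% in WT cells. Not every library was above it. WT replicate 1 of day 7.5 held 20.3 FPKM of Krt8 and 7.69 FPKM of Krt19, against undifferentiated WT means of 26.3 and 10.6 FPKM. What these percentages say of remaining ES cells was not tested. The 9 endoderm markers summed to 133.8 to 320 FPKM in Foxa2-/- and 116 to 136.4 FPKM in WT libraries on day 6.5, and to 203 to 310 and 114 to 185 FPKM on day 7.5. Of these 9, 2 were higher on day 6.5 (Afp and Sox17) and 2 on day 7.5 (Afp and Cxcr4), and Ttr was lower on day 7.5. The 8 surface ectoderm markers summed to 5.6 to 6.92 FPKM in Foxa2-/- and 1.11 to 5.45 FPKM in WT libraries on day 7.5, and the 6 trophoblast markers to 15 to 34.2 and 15.8 to 25.2 FPKM; of 1 and 3 tested, limma called 0 on either day (0 at an unadjusted p under 0.05). Of the surface ectoderm markers Dlx5 was at 0 in WT and Krt5 in Foxa2-/- cells on day 7.5, and of the trophoblast and endoderm markers none was at 0 in a whole group of these days. The 6 neuron markers summed to 239 to 325 FPKM in Foxa2-/- and 250 to 626 FPKM in WT libraries on day 6.5 and to 283 to 449 and 185 to 244 FPKM on day 7.5, none at 0 in a group. Of these 6, 2 were higher on day 7.5 (Elavl3 1.48 and Map2 0.94), and on day 6.5 limma called 0 (1 at an unadjusted p under 0.05). From day 3.5 to day 7.5 within Foxa2-/- cells, where 18.7% of all genes were called higher, 6 of 6 neuron, 3 of 5 ES cell, 5 of 9 endoderm, 1 of 1 surface ectoderm (Tfap2c) and 2 of 3 trophoblast markers (Gata3 and Tfap2c) rose. Within WT cells, where 4189 of 17124 genes were called higher, these counts were 1, 1, 7, 0 and 2. The change differed between genotypes for 2 of 6 neuron (Elavl3 and Map2) and 2 of 9 endoderm markers (Afp and Cxcr4). For this test 7.42% of all genes were called. The part of such cells in the result was not tested. The gene of the sorting protein, Prom1, was lower in Foxa2-/- cells on days 5.5, 6.5 and 7.5 (-0.52, -1.23 and -1.90).

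Earlier, the lower Cdh1 and keratin levels came with lower desmosome genes. Of 7 tested, 3, 4, 4 and 5 were lower on days 2, 3.5, 4.5 and 5.5 in turn, and 0 were higher. Of all genes, 3.72%, 2.7%, 5.82% and 9.73% were called lower on these days. Dsp (desmoplakin, which ties desmosomes to keratin filaments) had log2 differences of -1.78, -2.24, -2.36 and -2.0 at these times. Those of Dsc2 were -1.53, -1.39, -1.27 and -1.28. Among 5 to 6 other claudins tested, Cldn9 was lower at each time from day 2 (-1.19) to day 7.5 (-4.02, 0.226 against 19.2 FPKM). Cldn9 is the neighbour of Cldn6 on the other strand, and on days 6.5 and 7.5 the neighbours differed in opposite directions. Cldn15 was higher from day 3.5 on (0.66 to 0.76). Of all 17124 genes tested, 116, 289 and 775 were called higher on days 3.5, 4.5 and 5.5. On days 6.5 and 7.5, 13% and 13.6% were called higher, of 24.9% and 25.8% called in either direction. Krt20, 1 of 1 or 2 other keratins tested, was lower from day 2 on (-0.74 to -1.93). On day 2, 3 of 6 epithelial regulators were lower, Esrp2 (-1.28), Esrp1 (-1.26) and the Grainyhead-like factor gene Grhl2 (-1.15), as were the tight junction gene Ocln (occludin, -1.12), 1 of 2 lower of 10, and P-cadherin (Cdh3, -1.28), 1 of 7 adherens junction partners. Markers of other cells differed on day 2 too, when 263 of all 16465 genes were called higher and 3.72% lower. The summed level of 8 neural progenitor markers was 384 to 415 FPKM in Foxa2-/- and 262 to 270 FPKM in WT libraries, with 5 of 8 higher, and that of 8 surface ectoderm markers 3.45 to 3.69 and 9.34 to 9.79 FPKM, with 2 of 3 tested lower (Tfap2c and Dlx3). The 6 trophoblast markers summed to 3.17 to 4.45 and 8.77 to 9.47 FPKM, with 1 of 3 tested lower (Tfap2c, which is in both lists). No marker of these 3 lists was at 0 in a whole group of day 2. The 9 floor plate markers (Foxa2 among them) were lower for 5 of 6 tested on day 2 and for 8 of 8 from day 3.5 on. Ferd3l, one of them, was at 0 in the Foxa2-/- libraries of day 2. The summed level of the list on day 5.5 was 68.6 to 125.7 FPKM in Foxa2-/- against 1627 to 2403 FPKM in WT libraries. The part of these cell types in the differences was not tested.

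Some pairs of the genes varied together and others did not, over libraries that share genotype and day, and pairs differed between the early and late libraries. Up to day 2 (15 libraries) Pearson's r of log2(FPKM + 1) was 0.92 between Cdh1 and Epcam, but -0.30 between Cdh1 and Krt18. In the 28 late libraries it was 0.39 between Cdh1 and Epcam and 0.81 between Cdh1 and Krt18. It was 0.93 between Krt8 and Krt18, 0.91 between Epcam and Cldn7, 0.83 between Epcam and Cldn6 and 0.10 between Cdh1 and Cldn6. The genes most like Epcam in the late libraries, outside the 10, were Esrp1 (r = 0.96), Tmprss2 (0.91) and Casp8 (0.90). Those most like Cdh1 were Cpm (0.87), the desmosomal cadherin gene Dsc2 (0.86) and H19 (0.85). For Krt8 they were Vamp8 (0.93), Lgals3 (0.88) and Anxa11 (0.86).

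The Nkx2.2 arm asked about cells that keep Foxa2 but lack Nkx2.2, with 1 library per group, so no difference has a replicate check. Foxa2 was at 171 and 259 FPKM in the WT and 160 and 240 FPKM in the Nkx2.2-/- libraries of days 3.5 and 5.5. Most of the genes were lower in the Nkx2.2-/- library on both days. Past 2-fold on log2(FPKM + 1) lay 5 of 9 genes on day 3.5, all lower, against 4.63% of all genes and 2.81% lower. On day 5.5 it was 3 of 9, all lower, against 4.48% and 2.87% lower. The medians were -1.30 and -0.87 against -0.02 over all genes on both days, and with a pseudocount of 0.1 the counts were 6 and 6. Cldn3 did not reach FPKM 1. The 9 floor plate markers summed to 760 and 2078 FPKM in the WT and 822 and 1797 FPKM in the Nkx2.2-/- libraries, and the 8 ES cell markers to 7.32 and 18.3 and to 2.34 and 5.6 FPKM, with Tdgf1 at 0 in the Nkx2.2-/- library of day 3.5. Their part in the result was not tested.

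Cdh1 was at 32.1 FPKM in WT and 8.72 FPKM in Nkx2.2-/- cells on day 3.5 and at 12.8 and 2.83 FPKM on day 5.5, ratios of 3.68 and 4.52. Krt18 was at 185 and 66.8 FPKM and then at 91.9 and 26.9 FPKM, ratios of 2.77 and 3.42. Krt8 was at 58.0 and 14.2 FPKM and then at 20.4 and 6.36 FPKM, ratios of 4.08 and 3.20. These 3 genes were past 2-fold on both days. Krt7 (8.91 and 1.56 FPKM) and Cldn6 (7.07 and 2.27 FPKM) were past it on day 3.5 only. Krt19 was at 16.1 and 7.92 FPKM on day 3.5 and 3.35 and 1.56 FPKM on day 5.5, Epcam at 1.17 and 0.539 FPKM and at 2.2 and 0.747 FPKM, and Cldn4 at 2.96 and 1.52 FPKM and at 1.11 and 0.80 FPKM. Cldn7 was low and a little higher in the Nkx2.2-/- library, at 0.408 and 0.477 FPKM and at 1.11 and 1.53 FPKM. From day 3.5 to day 5.5 Cdh1, Krt8, Krt18 and Krt19 were lower in both lines, by log2 differences of -1.0 to -1.97 in WT and -1.05 to -1.80 in Nkx2.2-/- cells.

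**Figure D4:**
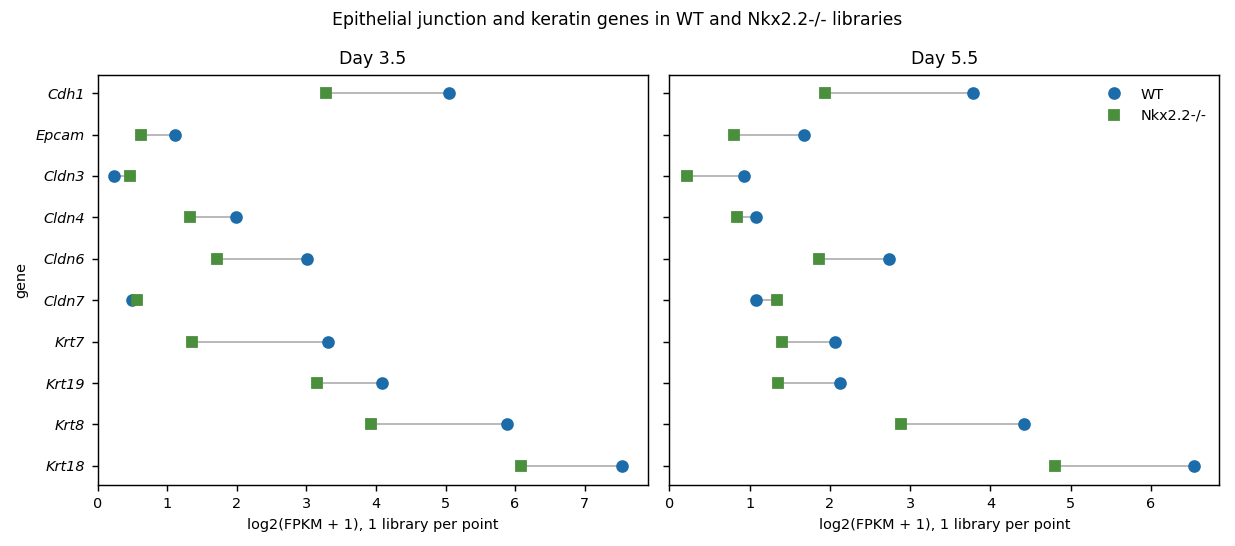
Level of each gene as log2(FPKM + 1) in the Nkx2.2 arm on day 3.5 (left) and day 5.5 (right), with 1 WT library (circles) and 1 Nkx2.2-/- library (squares) per day joined by a line. The squares lie to the left of the circles for Cdh1, Krt8 and Krt18 on both days, by 1.45 to 1.96 on this scale, and slightly to the right for Cldn7.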

How the data were processed

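RNA was poly-A selected, made into stranded libraries and sequenced from 47 samples. The authors deposited FPKM values per gene. The submitters' processing notes name, for GRCm38 (mm10), the tools limma, Cufflinks 2.1.1, HTSeq 0.6.1, TopHat2 2.0.4, bcl2fastq 1.8.3 and CASAVA; which of them made the FPKM values, and whether counting used strand, is not given in the sources used here. Values of exactly 0 may be failed estimates: each early or late library had 37 to 182 zeros where a replicate of it reached FPKM 5. In the 470 values of the 10 genes 4 were 0. FPKM gives no counts, and 3 columns of none of the 47 samples were not used.

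The tables were fitted separately by limma 3.58.1 under R 4.3.3 (with the package data.table, 1.17.8) on log2(FPKM + 1). Genes had to reach FPKM 1 in 2 libraries (16465 early and 17124 late genes did). The model had 1 mean per group, empirical Bayes moderation with a trend and two-sided tests adjusted by the Benjamini-Hochberg method. The added 1 understates changes of low genes. The Nkx2.2 arm (15141 genes that reached FPKM 1 in any library) has no test. Other work used Python 3.11.15, pandas 2.3.3, numpy 2.4.6 and matplotlib 3.10.9. The fit was tested on simulated data. The 10 genes and the pathway and marker lists were chosen with earlier results of these data known. All 10 genes are given, up to 3 called genes per list and direction by size, Foxa2 as the check, and for 3 of the genes the 3 genes most like them; Cldn9, Cldn15, Pou5f1 and Prom1 are named by their lists, and Snai1 and Snai2 were named after their values were seen. Alternatives were another pseudocount, no filter, 2 other scalings, a length correction, zeros as missing, the compared groups alone, a replicate block, and leaving out libraries.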

Additional observations from a re-analysis of the deposited data

Results flagged for a closer look

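For 5 results the change over time differed between WT and Foxa2-/- cells by the test of that difference in limma. From undifferentiated cells to day 2 the change of Cdh1 was -2.48 on the log2 scale in Foxa2-/- relative to WT cells (adjusted p = 9.15e-04), with both WT libraries of day 2 above all 3 Foxa2-/- libraries. From day 3.5 to day 7.5 the difference of the changes was 3.16 for Cdh1 (adjusted p = 8.96e-06), 3.10 for Cldn7 (9.39e-04), 2.47 for Epcam (4.23e-04) and 1.54 for Cldn4 (0.00679). On day 7.5 both Foxa2-/- libraries lay above all 3 WT libraries for each of these 4 genes. The libraries of day 2 and day 7.5 entered these tests, so their order is a description and no separate support. The share of all genes with such an order was not counted. Of all genes, 1.01% and 7.42% were called by these tests in turn. Between genotypes on day 7.5, Cldn4 was not called (0.59, adjusted p = 0.0943 by limma).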

How the results depend on the processing

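Of 45 calls of the 10 genes, 24 were kept under every alternative, 21 were lost under at least 1 and 0 changed sign; 17 were lost in fits of the compared groups alone, which have fewer libraries to estimate the spread. These limma fits gave 0 calls on day 2 (7 at an unadjusted p under 0.05 in the reported fit), 1 on day 3.5, 2 on day 7.5, 5 for Foxa2-/- day 2 against undifferentiated cells and 3 for day 7.5 against day 3.5. On day 2 there were 5 with median-of-ratios factors and 5 with the length trend removed. For WT day 7.5 against day 3.5, 2 were called with no filter and 2 with quantile normalization. Without replicates 1 and 3 of day 2, Foxa2-/- day 2 against undifferentiated cells gave 4. In the Nkx2.2 arm, a pseudocount of 0.1 gave 6 genes past 2-fold on day 5.5. The cause of these shifts was not tested.

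Leaving out 1 library at a time gave 0 to 0 calls in undifferentiated cells and on day 1, and, from day 2 to day 7.5 in turn, 2 to 5, 1 to 4, 2 to 3, 3 to 5, 3 to 3 and 3 to 4. Without Foxa2-/- replicate 2 of day 2, 5 of the 10 and 6039 of all genes were called on that day; without WT replicate 2 or 3 of day 3.5, 1 of 9 on that day; and without WT replicate 1 of day 5.5, 5 of 9. For the changes to day 2 the ranges were 3 to 5 in WT (3 without undifferentiated replicate 2 or day 2 replicate 1) and 6 to 8 in Foxa2-/- cells. From day 3.5 to day 7.5 they were 1 to 2 in WT and 4 to 8 in Foxa2-/- cells. The interactions had 1 to 2 (2 without Foxa2-/- replicate 2 of day 2) and 4 to 5.

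Same-numbered replicates correlated at -0.24 to 0.36 in their deviations over all genes, not all over 0.1, and were treated as unpaired, although replicate 1 was the lowest for Krt19 in 9 of 10 late groups. With a replicate block, 4 genes were called on day 4.5 and 5 on day 5.5; with a block and the length trend removed, a setting chosen after seeing the data, there were 4 on day 4.5, 5 on day 5.5 and 2 for WT day 7.5 against day 3.5. The block gave 3 on days 2 and 6.5, 4 on day 3.5 and 5 on day 7.5. Genes near 1 FPKM, such as Cldn4, rest on few fragments, and Cldn3 could not be tested after day 2.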

Other observations

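N-cadherin is the cadherin of neural cells. Its gene Cdh2 was at 101 to 219 FPKM in WT group means from day 3.5 to day 7.5 and at 90.1 to 108 FPKM in Foxa2-/- cells. Its log2 differences were 0.08 on day 3.5 and -0.33 on day 4.5, neither called, and -0.62, -0.94 and -1.26 on days 5.5, 6.5 and 7.5, all called. Cdh1 was lower on day 5.5 and higher on day 7.5. Among the genes of repressors that bind the E-box, Zeb1 was higher in Foxa2-/- cells on days 5.5, 6.5 and 7.5 (0.75, 0.62 and 1.24) and Zeb2 from day 3.5 to day 6.5 (0.72, 0.66, 0.86 and 0.53), while Snai1 and Snai2 were not called at any time. Twist1, from the same gene list, was lower from day 4.5 on (-1.46 to -2.70). On day 7.5 Zeb1, Epcam, Cldn6 and Cldn7 were all higher in this bulk RNA, and a link between them was not tested. Of all genes, 3.38%, 7.5%, 14.3%, 24.9% and 25.8% were called from day 3.5 to day 7.5 in turn. Of the 8 genes of the list that holds Cdh2, Zeb1 and Twist1, 7 were tested.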
